A study of Mus musculus with 28 samples.

Results

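The genes described here are 6 transcripts chosen for the posterior lobe of the pituitary, measured in 28 whole glands. They are the peptide hormone genes Oxt and Avp and the pituicyte and glial genes Rax, Gfap, Slc1a3 and Vim. In male control 1, a gland described below, only Oxt, Avp and Rax of the 6 were the lowest of all glands. All 6 were taken by name from the 32594 genes of the count table, with earlier results of these data known. Whole pituitaries of C57BL/6J mice, 8 weeks old on arrival, were sequenced one gland at a time in 8 groups. Home cage controls were 4 females and 4 males that were neither sleep deprived nor restrained. The restraint groups (4 females and 2 males) spent 20 min in a plastic restrainer and were killed 10 min after its end. The PSD groups (4 females and 3 males) were kept for 12 h on small columns above water, a procedure called paradoxical sleep deprivation, and were killed 18 h after it ended. The PSD + restraint groups (4 females and 3 males) had both, with the restraint at the end of the 18 h. All mice, home cage controls included, had been adapted to the column tanks beforehand.

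The posterior lobe is brain tissue that hangs from the hypothalamus. Its axons come from magnocellular neurons of the supraoptic and paraventricular nuclei, which make oxytocin and vasopressin, carry them down the stalk and release them into the blood in birth, milk ejection, dehydration and stress. Between the axons lie pituicytes, the astrocyte-like glia of the lobe, which wrap and uncover the nerve endings as demand changes. The cell bodies of the peptide neurons are not in the gland, but the peptide mRNAs have been found in their axons. In a whole gland the posterior lobe is a small share of the tissue, beside the hormone cells of the anterior lobe and the melanotropes of the intermediate lobe, so a change in the share of a cell type and a change in RNA per cell cannot be told apart here.

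Oxt and Avp lie next to each other on chromosome 2 and point towards each other. In GRCm38 (mm10) Oxt spans chr2:130576173-130577054 on the plus strand and Avp chr2:130580620-130582554 on the minus strand, with 3565 bases between their ends. Both genes have 3 exons, and their second exons are the most alike part, because they encode the neurophysin that carries each peptide. The 2 exons of 202 coding bases (chr2:130576591-130576792 and chr2:130581056-130581257) share 193 bases, or 95.5%. They are printed here 5′ to 3′ because a read from the part in capitals, 125 bases that are the same in both genes, can belong to either.
Oxt exon 2: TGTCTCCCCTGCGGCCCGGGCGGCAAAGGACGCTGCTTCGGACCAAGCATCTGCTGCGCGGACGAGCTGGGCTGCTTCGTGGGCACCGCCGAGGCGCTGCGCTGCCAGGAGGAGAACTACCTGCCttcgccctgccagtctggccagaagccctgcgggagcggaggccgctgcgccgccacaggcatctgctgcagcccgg
Avp exon 2: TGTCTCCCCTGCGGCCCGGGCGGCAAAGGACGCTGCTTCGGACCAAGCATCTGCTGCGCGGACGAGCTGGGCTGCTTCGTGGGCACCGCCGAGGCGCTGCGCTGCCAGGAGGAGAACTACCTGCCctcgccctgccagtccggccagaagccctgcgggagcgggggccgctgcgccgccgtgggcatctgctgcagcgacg
With the last bases of exon 1 the shared run is 127 bases long. Of all 76-base windows (the read length) of the spliced Oxt transcript, 52 of 462 (11.3%) are also in Avp, and 52 of 502 (10.4%) the other way. The counts of the pair therefore carry an uncertain share near the shared run.

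The stretches before the start sites of these genes are shown because Oxt and Avp rose and fell together from gland to gland and only Oxt passed the test between the sexes. Capitals mark TGACC and its reverse complement GGTCA, the core of the half-site that nuclear hormone receptors bind. The sequences, each 250 bases from the RefSeq promoter table (GRCm38.p6), run 5′ to 3′ on the gene's own strand, from chr2:130575919-130576168 for Oxt and chr2:130582589-130582838 for Avp.
Oxt promoter: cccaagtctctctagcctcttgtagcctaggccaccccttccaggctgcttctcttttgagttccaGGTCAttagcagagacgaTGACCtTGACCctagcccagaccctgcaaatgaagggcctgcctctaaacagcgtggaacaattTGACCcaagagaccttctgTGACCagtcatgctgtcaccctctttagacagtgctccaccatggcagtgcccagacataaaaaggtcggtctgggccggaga
Avp promoter: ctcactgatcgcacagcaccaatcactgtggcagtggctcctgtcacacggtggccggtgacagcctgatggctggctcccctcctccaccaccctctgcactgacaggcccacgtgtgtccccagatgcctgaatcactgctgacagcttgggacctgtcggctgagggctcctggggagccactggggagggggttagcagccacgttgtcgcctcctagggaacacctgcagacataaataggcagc
The Oxt window held TGACC 5 times on either strand and the Avp window 0 times. TGACC occurred in 35.2% of 32851 promoters of that length and 5 times or more in 0.0426% of them. The longer TGACCTTGACC, which is 2 of those cores 1 base apart and was read from the Oxt window itself, was in 3 promoters in all (0.00913%, both strands). These are matches of letters and say nothing of binding. A link between them and the sex difference was not tested, and the cell bodies of the peptide neurons are not in the gland.

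Gene counts summed to between 14024465 and 52948531 per gland, with a median of 33389717, and levels are given as CPM, the counts of a gene per 1000000 counts of that total. The counts of no 2 glands of a group matched within sampling noise (37 pairs). Across glands, 3 stood apart in genes that bear on the posterior lobe. Changes printed for the 6 genes are also given without them, or without 1 of them, where they move by over 1.5 times. These values stand here or with the other processing alternatives. Male control 1 was at 11737 CPM for Pomc, the hormone gene of melanotropes and corticotropes, against 35026 to 160848 CPM in the 25 glands other than the 3, and it was the lowest of all glands for all 6 intermediate lobe genes. Female PSD 1 and female PSD + restraint 4 had summed levels of 10 forebrain neuron genes of 390 and 278 CPM, against 77.5 to 171 CPM in those 25 glands. The sum in male control 1 was within that range, at 146 CPM. Of these genes, however, Gad1, Slc32a1 and Tbr1 were above the 25 others in all 3 glands. Gad1 was at 40.5 CPM in male control 1, against at most 32.4 CPM. Rbfox3 was below the 25 others in male control 1, and the rest of the 10 lay within their range there. All 3 glands were above the 25 others in Sox10 and Aqp4, genes of oligodendrocytes and astrocytes. Aqp4 was at 43.5, 21.3 and 24.1 CPM in female PSD 1, female PSD + restraint 4 and male control 1, against 7.90 to 17.6 CPM.

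Per kilobase of merged exon length, Oxt had the highest level of the 6 genes, with a median over 28 glands of 28.4 CPM per kb. Vim followed at 9.15, Avp at 5.05, Slc1a3 at 3.71, Gfap at 1.59 and Rax at 0.871 CPM per kb. Merged exons are longer than any single transcript, so genes with several isoforms are placed too low on this scale. Of 12 further pituicyte genes, all passed the filter on low counts in the fit of all mice. They were read as a check that the gland held the posterior lobe, and 8 of the 12 were lowest in male control 1. In the 25 glands Col25a1, a membrane collagen, was at 25.1 to 61.7 CPM, Scn7a, a sodium-sensing channel, at 25.8 to 77.4 CPM, and Nkx2-1, a transcription factor of the ventral forebrain and infundibulum, at 1.60 to 5.39 CPM. In male control 1 these genes were at 2.68, 1.74 and 0.0436 CPM (2 counts of Nkx2-1). Dio2, Hes1 and Vldlr, which other cells also express, were not low in that gland, at 89.9, 10.2 and 49.9 CPM against medians of 73.6, 9.60 and 53.2 CPM in the 25 glands. Gja1 was not low there either, at 28.7 CPM against a median of 26.8 CPM. The posterior lobe expected of a whole pituitary was thus not seen in the transcripts of the peptides, Rax, Col25a1, Scn7a and Nkx2-1 of male control 1.

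**Figure D1:**
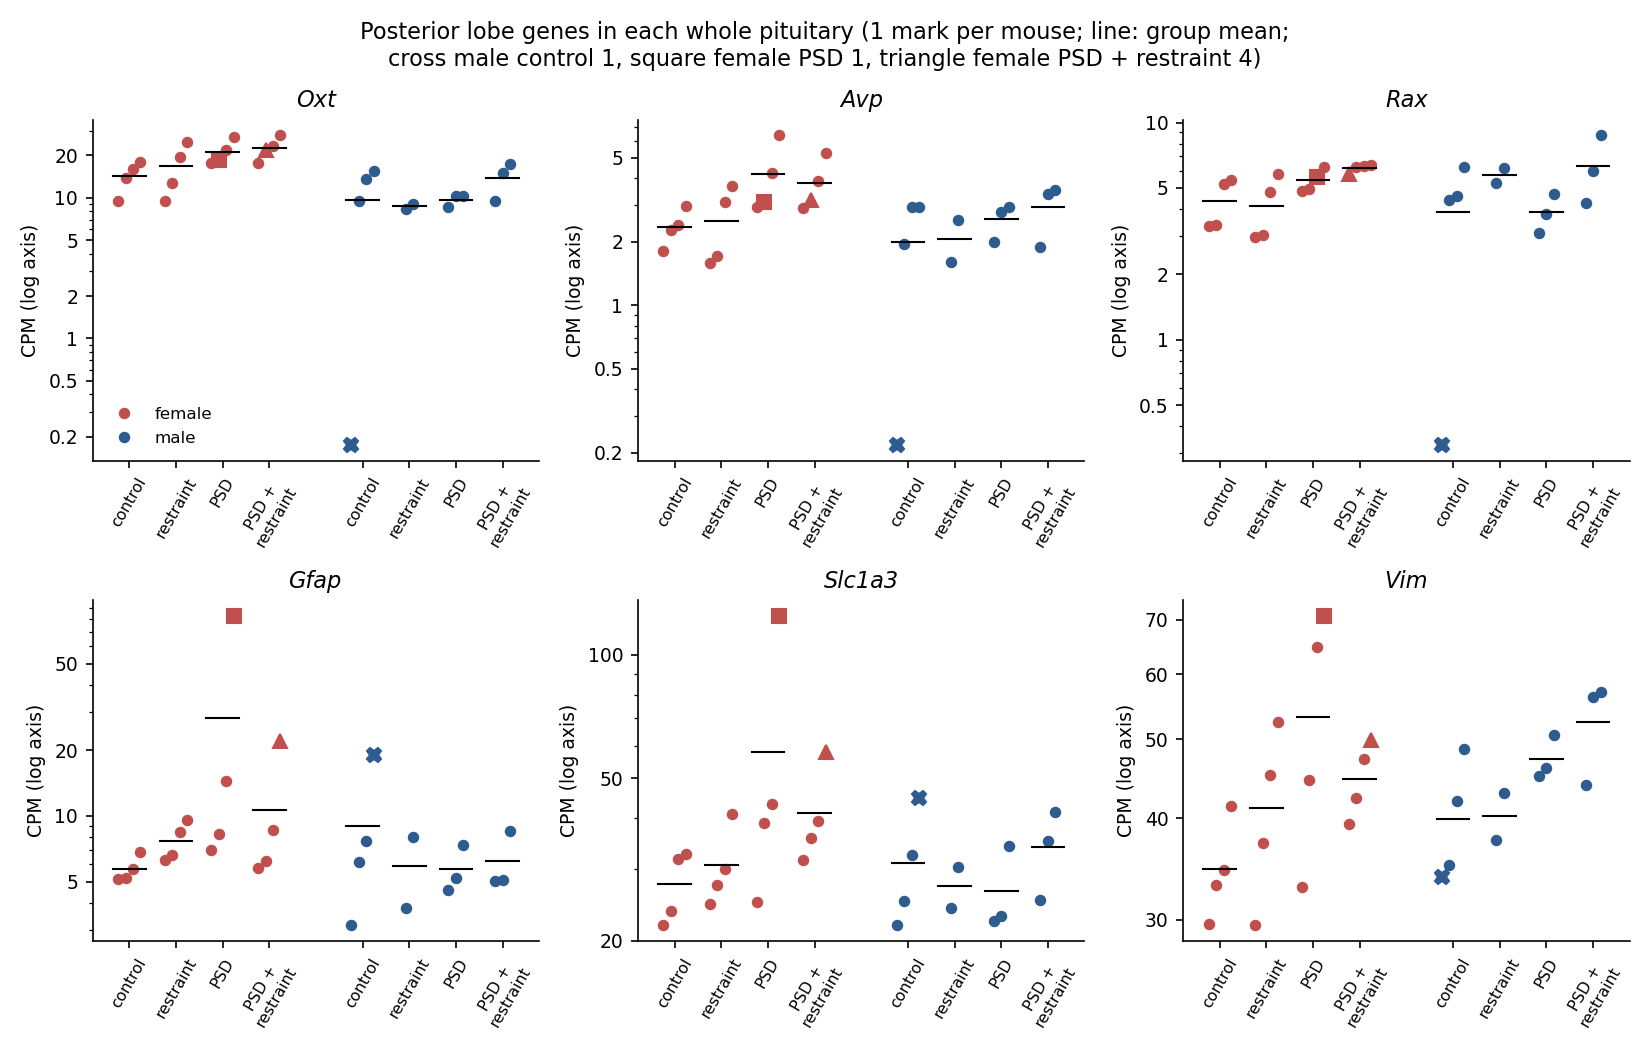
Levels of the 6 genes in every gland, in CPM on a log axis, by treatment group with females in red and males in blue; each mark is 1 mouse and each line a group mean. Male control 1 (cross) is the lowest gland for Oxt, Avp and Rax, and female PSD 1 (square) the highest for Gfap, Slc1a3 and Vim.

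Oxt encodes oxytocin and its neurophysin. In the females Oxt was at 16.1, 9.45, 18.0 and 13.8 CPM in home cage controls and at 19.5, 25.0, 12.8 and 9.43 CPM after restraint. After PSD it was at 18.5, 27.2, 21.7 and 17.6 CPM, and after PSD + restraint at 27.9, 23.3, 17.6 and 21.9 CPM. The female PSD glands were mostly above the female controls, with an overlap at the highest control. In the males Oxt was at 0.174, 13.6, 9.40 and 15.5 CPM in home cage controls and at 8.34 and 9.01 CPM after restraint. It was at 10.3, 8.61 and 10.2 CPM after PSD and at 14.98, 17.2 and 9.48 CPM after PSD + restraint. Every male group but PSD + restraint lay at or below the female control mean of 14.3 ± 3.68 CPM (SD, n = 4), apart from the highest male control.

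Oxt was the only one of the 6 genes that passed the test in any of the 16 comparisons made. Over all mice, with sex, PSD, restraint and their interaction in edgeR's quasi-likelihood model, it was higher in females than in males by 0.88 on the log2 scale (SE 0.26, adjusted p = 0.00929, Benjamini-Hochberg over 18936 genes). A call required an adjusted p of at most 0.05 and a log2 change of at least 0.32 in size, and 14.9% of all genes tested were called between the sexes. Of the 16 females, 11 were above every male, and 5 of the 12 males were below every female. The female range was 9.43 to 27.9 CPM with a median of 18.3 CPM. The male median was 9.85 CPM, and 10.2 CPM without male control 1.

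The difference between the sexes did not rest on male control 1, which had 8 counts of Oxt. Without that gland the log2 difference was 0.77 (adjusted p = 0.000164, edgeR), and without the 3 glands that stood apart 0.78 (adjusted p = 0.000315, edgeR). With a score of the intermediate lobe genes as a further term it was 0.65 (adjusted p = 0.00588), and with a score of the forebrain neuron genes 1.09 (adjusted p = 0.00501). Within each of the restraint, PSD and PSD + restraint groups the females lay above all males, as did 8.06%, 7.55% and 6.45% of all genes tested, while the sexes overlapped in the home cage controls. Whether the sex difference itself differed between treatments was tested as the sex difference of each response, and 0 genes were called in any of those 3 tests by edgeR, at 804 (restraint), 2038 (PSD) and 1363 (PSD + restraint) genes with an unadjusted p under 0.05. For Oxt these differences were 0.35 (SE 0.77), 0.54 (SE 0.71) and 0.08 (SE 0.71) on the log2 scale, and 0.77, 0.96 and 0.50 without male control 1, where none of them was called.

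Against home cage controls Oxt was not called after any treatment. The log2 change over all mice was 0.07 (SE 0.36, adjusted p = 0.979, edgeR) after restraint, where 1.14% of all genes were called. It was 0.29 (SE 0.34, adjusted p = 0.701) after PSD, with 0.671% of genes called. Leaving out 1 mouse moved this estimate to between 0.11 (without male control 1) and 0.45 (without male control 4), and the number of all genes called from 127 to between 31 (without female control 2) and 227 (without female PSD 4). With the 3 glands left out, Oxt was at 0.13 after PSD and -0.10 after restraint. The change of Oxt was 0.59 (SE 0.34, adjusted p = 0.286) after PSD + restraint, with 5.46% called. Within the females the changes were 0.53 (SE 0.24, adjusted p = 0.246) after PSD and 0.65 (SE 0.24, adjusted p = 0.153) after PSD + restraint.

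Avp encodes vasopressin, which acts on the kidney and on corticotropes through Avpr1b. Per kilobase of merged exons, its level was lower than that of Oxt in every gland but male control 1. Avp was at 2.40, 1.82, 2.97 and 2.27 CPM in female controls, and at 3.10, 6.41, 2.92 and 4.26 CPM in females after PSD. Those 2 groups overlapped only between the lowest PSD gland and the highest control. The males were at 1.88 to 3.54 CPM after PSD + restraint and at 1.96 to 2.93 CPM in the 3 controls other than male control 1, which had 10 counts (0.218 CPM, 95% exact binomial interval 0.105 to 0.401 CPM, counting error only). Over all mice Avp was 0.59 (SE 0.29, adjusted p = 0.294) above home cage controls on the log2 scale after PSD and 0.62 (SE 0.30, adjusted p = 0.184) after PSD + restraint, and neither was called. Between the sexes it was 0.46 (SE 0.22, adjusted p = 0.107) higher in females and not called.

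The ratio of Oxt to Avp counts compares the pair inside a gland. These ratios were chosen after the data had been seen. The median ratio was 6.08 in the 16 females and 4.80 in the 11 males other than male control 1, which had 8 Oxt and 10 Avp counts. Within treatments the ratio was 0.60 higher in females on the log2 scale (permutation test over 28 glands, two-sided, 100000 permutations, p = 0.00011, adjusted p = 0.000293 over 8 tests). Of the 16 females, 12 had a ratio above every male. Without male control 1 the difference was 0.42 (permutation p = 0.00016), and without the 3 glands 0.39 (permutation p = 0.00038).

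Oxt was also higher in females relative to 2 glial genes of the lobe. Its ratio to Rax was 0.89 higher on the log2 scale in females (permutation p = 2e-05, adjusted p = 0.00016), with medians of 3.71 in 16 females and 2.23 in the 11 males. The ratio to Col25a1 was 0.80 higher (permutation p = 4e-05, adjusted p = 0.00016). Without male control 1 these differences were 0.73 and 0.63 (permutation, adjusted p = 8e-05 and 0.00032). The sexes overlapped in both ratios, with 10 and 7 of the 16 females above every male. Rax to Col25a1, both glial, differed by -0.09 between the sexes (permutation p = 0.446). Between mice with and without PSD none of the 4 ratios passed (permutation p from 0.147 to 0.982), and the Oxt to Avp ratio differed by 0.01 on the log2 scale, or by -0.15 without male control 1.

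**Figure D2:**
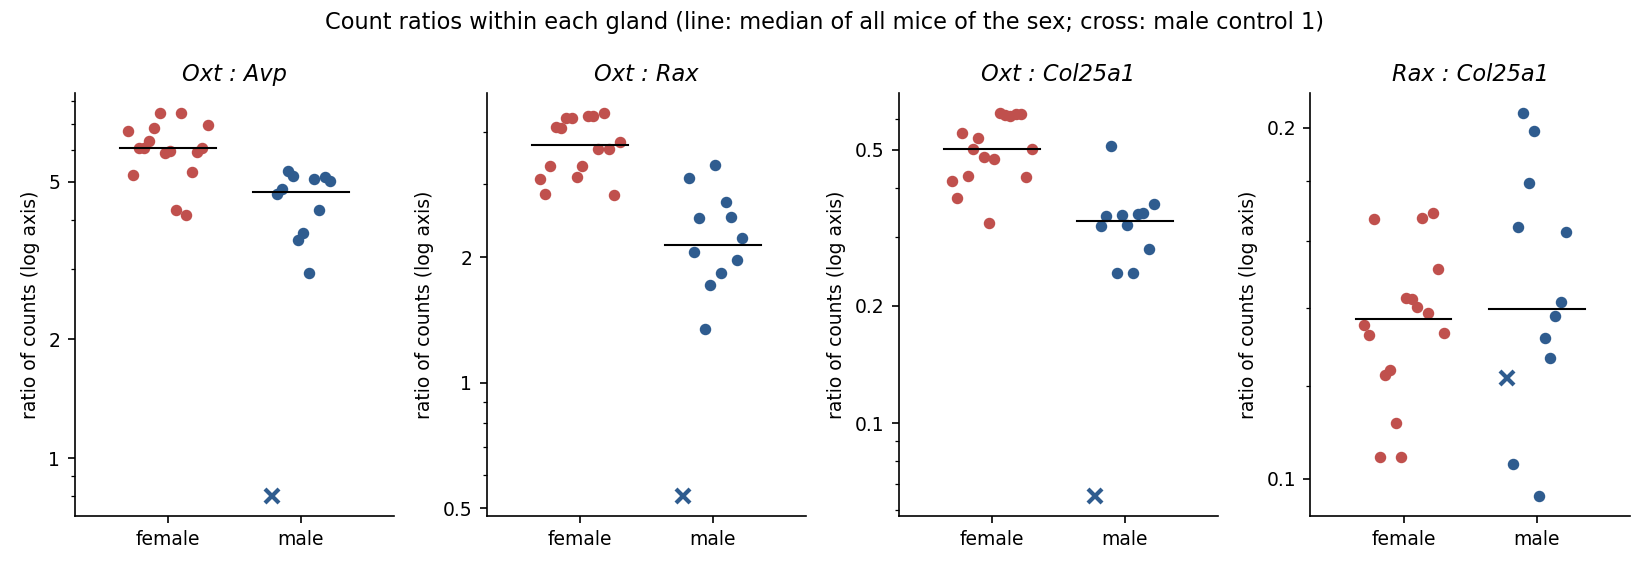
Ratios of the counts of 2 genes within each gland, on a log axis, in 16 females (red) and 12 males (blue); lines are medians over all mice of the sex and the cross is male control 1. Oxt relative to Avp, Rax and Col25a1 has a higher median in females, with 12, 10 and 7 of 16 females above every male, and the ratio of the glial genes Rax and Col25a1 differed by -0.09 on the log2 scale.

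Of the other genes of the oxytocin and vasopressin pathway, 8 of 10 were tested over all mice (Avpr1a and Avpr2 did not pass the filter). Between the sexes Oxtr, the oxytocin receptor, was called higher in females by 1.07 on the log2 scale (SE 0.36, adjusted p = 0.0217), and Pcsk1, the protease that starts the cleavage of many prohormones, was called lower by 0.72 (log2 change -0.72, adjusted p = 5.75e-09). Both calls remained without the 3 glands, at 1.05 and -0.65. Oxtr was at 1.35 to 15.3 CPM in females and 0.785 to 3.73 CPM in males, and the 4 highest glands (15.3, 13.8, 7.07 and 6.63 CPM) were female controls and females after restraint. After PSD + restraint the means went the other way, at 2.21 ± 0.953 CPM in females (SD, n = 4) and 2.85 ± 0.928 CPM in males (SD, n = 3), and the sex difference of that response was -2.24 (SE 0.86, adjusted p = 0.623, edgeR) and not called. Avpr1b, the receptor on corticotropes, was 0.32 higher in females (adjusted p = 0.0775) and not called. After PSD + restraint, 2 of the 8 were called, beside 5.46% of all genes, and both rose: Pcsk1 by 0.57 (adjusted p = 0.00019) and Cpe, the carboxypeptidase that trims peptide ends, by 0.35 (adjusted p = 0.0016). Both enzymes are also made by anterior and intermediate lobe cells. After restraint alone and after PSD alone 0 of the 8 were called by edgeR, although Cpe after PSD missed only the size limit, at 0.31 (adjusted p = 0.0375). After PSD without the 3 glands, Pcsk1 was called at 0.47 (adjusted p = 0.0157, edgeR), while Cpe at 0.31 missed both limits (adjusted p = 0.0802). The median log2 change of the 8 genes was 0.12 after PSD + restraint, against 0.0013 over all genes.

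Rax is a homeobox transcription factor of the developing eye and hypothalamus that stays on in pituicytes and tanycytes. It was at 5.22, 3.34, 5.45 and 3.36 CPM in female controls and at 6.27, 6.39, 6.25 and 5.80 CPM in females after PSD + restraint. All 4 of these females lay above all 4 controls, as did 5.86% of genes tested. The fit within females gave a log2 change of 0.51 (SE 0.19, adjusted p = 0.145) and no call, where 2.2% of genes were called. In the males Rax was at 0.327, 4.39, 4.58 and 6.24 CPM in controls and at 6.01, 8.75 and 4.25 CPM after PSD + restraint, and the groups overlapped. Over all mice the log2 change was 0.61 (SE 0.29, adjusted p = 0.184) after PSD + restraint, 0.16 (SE 0.29) after PSD and 0.19 (SE 0.30) after restraint, and 0.12 (SE 0.22) between females and males. In the same order, these were 0.45, -0.05, 0.01 and 0.0029 without the 3 glands.

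The melanotrope genes moved with that comparison. Of the 6 intermediate lobe genes, 3 were called higher after PSD + restraint over all mice, where 5.46% of all genes were called, namely Pomc by 0.99 (adjusted p = 0.0157), Pcsk2 by 0.996 (adjusted p = 0.00926) and Oacyl by 0.86 (adjusted p = 0.0227). The same 3 were called without the 3 glands that stood apart, at 0.91, 0.94 and 0.79. Of the 12 pituicyte genes 0 were called in this comparison by edgeR, and 10 had a log2 change above 0, with a median of 0.34 against 0.0013 over all genes tested. After PSD over all mice 0 of the 12 were called as well. After restraint over all mice 1 of the 12, Hes1, was called lower, where 1.14% of all genes were called. Hes1 was also called without the 3 glands. With the intermediate lobe score as a term, the PSD + restraint estimates over all mice were -0.13 for Oxt, -0.065 for Avp and -0.00082 for Rax. The part of lobe content in these estimates cannot be told apart from a response to treatment, since the score is built on genes that were themselves called.

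Gfap, the intermediate filament of astrocytes, was the most variable of the 6. In females it was at 5.70, 6.80, 5.19 and 5.16 CPM in controls and at 83.0, 8.28, 14.5 and 6.96 CPM after PSD. After restraint it was at 9.54, 8.42, 6.60 and 6.28 CPM, and after PSD + restraint at 6.20, 8.61, 5.75 and 22.0 CPM. All 4 female PSD glands were above all 4 controls, as were 3.36% of genes tested. In males Gfap was at 19.0, 7.65, 3.15 and 6.17 CPM in controls and at 5.22, 7.33 and 4.57 CPM after PSD. Male control 1, the gland with 8 counts of Oxt, had the highest Gfap of the males, so the genes of this list did not fall together in it.

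Within the females Gfap was 2.202 higher after PSD on the log2 scale (SE 0.63, adjusted p = 0.126, edgeR) and was not called, while 0.0277% of genes were called in that comparison. That share rests on 5 genes, and leaving out 1 mouse gave between 0 (without female control 2, control 3 or PSD 2) and 557 (without female PSD 4). DESeq2 gave the same change with an adjusted p of 0.0376. Without female PSD 1 the change was 0.76 (SE 0.36, adjusted p = 0.335). Without female PSD 4, the gland with the lowest Gfap of that group, Gfap, Slc1a3 and Vim were all called, at 2.53, 1.24 and 0.72 (adjusted p = 0.0362, 0.0425 and 0.0386), in a fit that called 3.05% of all genes. In males the change after PSD was -0.68 (SE 0.46, adjusted p = 0.715, with 0.00547% of genes called), and it was -0.0062 (SE 0.31, adjusted p = 0.997) without male control 1. The difference between the female and male changes was 2.89 (SE 0.87, adjusted p = 0.302, edgeR) and was 1.45 (SE 0.63, adjusted p = 0.489) without female PSD 1 and 0.77 (SE 0.40, adjusted p = 0.548) without the 3 glands. Over all mice the change of Gfap was 0.95 (SE 0.51, adjusted p = 0.329, edgeR) after PSD. It was 0.07 (SE 0.50, adjusted p = 0.953) after PSD + restraint and -0.23 (SE 0.52, adjusted p = 0.952) after restraint. In the same order, these were 0.41, 0.25 and 0.29 without the 3 glands, and none was called.

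Genes of other brain cells moved with Gfap. Female PSD 1 was the highest gland for 8 of 8 oligodendrocyte and Schwann cell genes (summed level 393 CPM, against 67.5 to 179 CPM in the 25 glands), for 7 of 10 forebrain neuron genes and for 7 of 10 astrocyte genes. Slc17a7, the vesicular glutamate transporter of cortical neurons, was at 64.8 CPM in that gland and at 46.5 CPM in female PSD + restraint 4, against 6.26 to 24.3 CPM in the 25 glands. Neurod6, which defines cortical pyramidal neurons, had few counts in any gland. It was highest in female PSD 1, at 0.333 CPM (6 counts), against 0 to 0.191 CPM in the 25 glands. Female PSD + restraint 4 and male control 1 lay within that range, at 0.0542 and 0.0654 CPM (1 and 3 counts). With the forebrain neuron score as a term, the change of Gfap after PSD in females was 0.52 (SE 0.24, adjusted p = 0.338). The part of attached brain tissue in the Gfap values was not tested beyond these fits.

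Slc1a3 encodes the glial glutamate and aspartate transporter GLAST. It was at 32.6, 21.9, 31.8 and 23.7 CPM in female controls and at 125, 38.9, 43.3 and 24.9 CPM in females after PSD, where the lowest gland lay within the controls. Males were at 21.8 to 44.8 CPM in controls and 22.3 to 34.1 CPM after PSD. The change within females was 0.998 (SE 0.34, adjusted p = 0.144) on the log2 scale, and 0.35 (SE 0.20, adjusted p = 0.418) without female PSD 1. Over all mice it was 0.45 (SE 0.25, adjusted p = 0.345) after PSD, 0.044 without female PSD 1 and 0.18 without the 3 glands. It was 0.33 (SE 0.25, adjusted p = 0.43) after PSD + restraint and -0.04 (SE 0.26, adjusted p = 0.981) after restraint. Females were 0.38 (SE 0.19, adjusted p = 0.12) above males for Slc1a3 and 0.66 (SE 0.39, adjusted p = 0.191) for Gfap. Without female PSD 1 these were 0.21 (adjusted p = 0.178) and 0.31 (adjusted p = 0.373). Without male control 1 both were called between the sexes, at 0.46 (adjusted p = 0.0475) and 0.91 (adjusted p = 0.0437), and without all 3 glands neither was, at 0.24 and 0.39 (adjusted p = 0.0604 and 0.0552).

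Vim, the filament of pituicytes and also of endothelial, stromal and folliculostellate cells, came closest to a call among the treatments. In females it was at 41.4, 34.6, 29.7 and 33.1 CPM in controls, 37.3, 45.2, 52.5 and 29.5 CPM after restraint, and 70.9, 44.6, 64.8 and 32.9 CPM after PSD. After PSD + restraint the females were at 47.2, 42.3, 39.3 and 49.9 CPM. In these females only the lowest PSD + restraint gland lay within the range of the controls. In males it was at 33.9, 48.6, 35.03 and 42.0 CPM in controls and 37.6 and 42.9 CPM after restraint. The males were at 45.1, 46.1 and 50.6 CPM after PSD and 57.1, 56.3 and 43.9 CPM after PSD + restraint, with 1 control inside each range.

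The log2 change of Vim over all mice was 0.41 (SE 0.12, adjusted p = 0.104, edgeR) after PSD and 0.37 (SE 0.12, adjusted p = 0.0514) after PSD + restraint. Neither was called by edgeR, and DESeq2 called the first at an adjusted p of 0.0481 as well as the second. In males after PSD + restraint the change was 0.42 (SE 0.11, adjusted p = 0.0583), where 2.56% of genes were called. Restraint alone gave 0.16 (SE 0.13, adjusted p = 0.77), and the sexes differed by -0.01 (SE 0.09, adjusted p = 0.934). The change after PSD was 0.29 (SE 0.13, adjusted p = 0.256) and the sex difference -0.07 without the 3 glands. Of 8 other filament genes tested over all mice, 0 were called after PSD or after PSD + restraint by edgeR, and 7 and 8 of them had a change above 0. Within males after PSD + restraint 1 of the 8 was called, Lmna at 0.38 (adjusted p = 0.0456, edgeR). Without male control 1 it was 0 of the 8, with Lmna at 0.32 (adjusted p = 0.0718, edgeR). Between the sexes, where 14.9% of all genes were called, Nes, Synm and Lmna were called higher in females, by 0.49, 0.76 and 0.47 on the log2 scale.

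**Figure D3:**
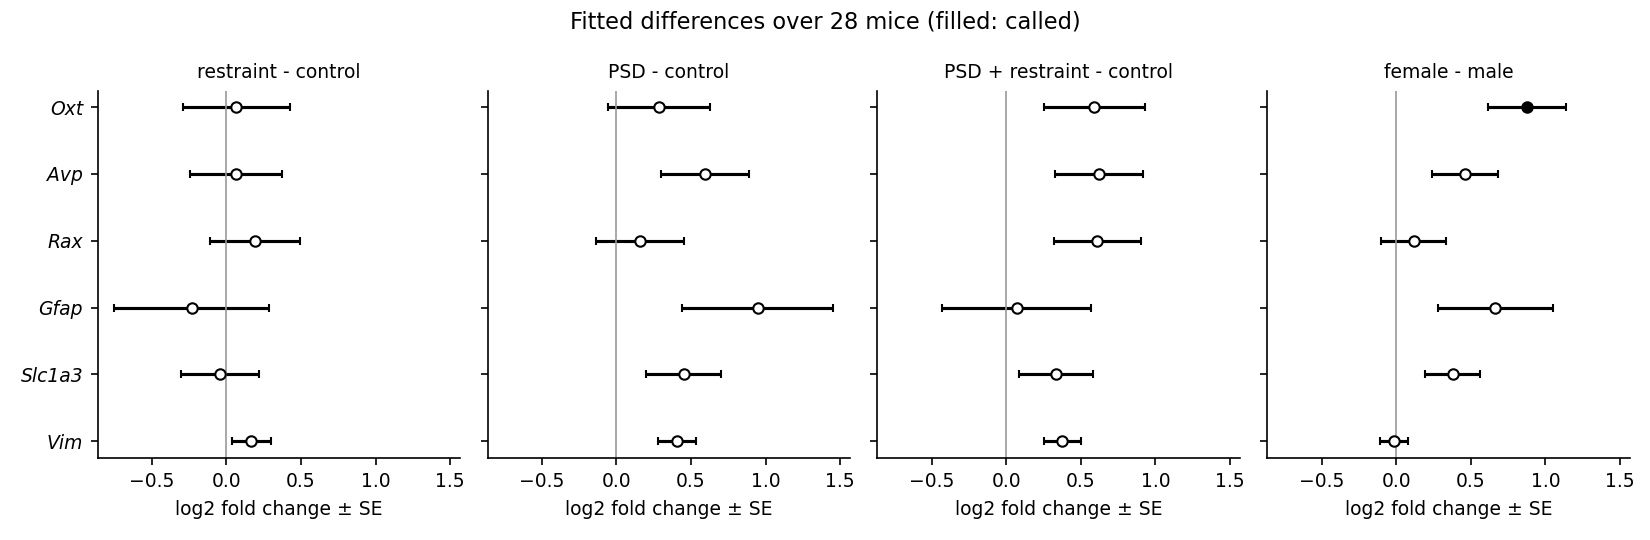
Log2 fold changes of the 6 genes over 28 mice with their standard errors, in 3 treatments against home cage controls and in females against males; filled marks passed the test. Oxt between the sexes, at 0.88, is the only filled mark.

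The remaining contrasts called none of the 6 genes. Between PSD + restraint and restraint alone (0.0951% of all genes called) their log2 changes were 0.21 to 0.56, and between PSD + restraint and PSD (2.01% called) -0.88 to 0.45. The interaction of PSD and restraint called 0 of 18936 genes with edgeR, with 743 at an unadjusted p under 0.05, and its estimates for the 6 genes were -0.64 to 0.26. Restraint against controls within females (0.543% called) gave -0.05 to 0.45, and within males (0.296% called) -0.59 to 0.58. The median change of the 6 genes over all mice was 0.07 for restraint, 0.43 for PSD and 0.48 for both together, against medians over all genes of 0.0006, 0.0068 and 0.0013. Without the 3 glands the 6 genes had medians of 0.07, 0.23 and 0.41. Their ranges without these glands were -0.04 to 0.59 between PSD + restraint and restraint, -0.16 to 0.50 between PSD + restraint and PSD, and -0.45 to 0.48 for the interaction, and within males after restraint -0.55 to 0.18. The comparisons of treated mice with home cage controls over all mice share those controls, male control 1 among them.

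The 6 genes did not vary as one set from gland to gland. After each of the 8 group means had been removed, 9 of 27 relations among the 6 genes and with the intermediate lobe and forebrain neuron scores had an adjusted p of at most 0.05 (permutations within groups, 100000, two-sided, Benjamini-Hochberg over 27). The peptide genes and Rax went together. Oxt and Avp had a Pearson r of 0.93 (Spearman rho 0.88, permutation p = 3e-05 and 9e-05, adjusted p = 0.00054), Oxt and Rax 0.96 (rho 0.80, adjusted p = 0.00157), and Avp and Rax 0.90 (rho 0.77, adjusted p = 0.00288), each over 28 mice. Without the 2 glands farthest from the median, male control 1 and male control 4, these were 0.82, 0.83 and 0.70. Without the 3 glands that stood apart they were 0.80, 0.71 and 0.61 (adjusted p = 0.00378, 0.0183 and 0.0349).

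Gfap and Slc1a3 formed another pair, with an r of 0.85 (rho 0.70, permutation, adjusted p = 0.00157). It fell to 0.44 (adjusted p = 0.118) without the 3 glands, so this relation rests largely on them. Gfap and the forebrain neuron score had an r of 0.87 (rho 0.76, adjusted p = 0.00081), and 0.60 (adjusted p = 0.031) without the 3 glands. Slc1a3 had 0.82 with that score (rho 0.67, adjusted p = 0.00157), and 0.50 (adjusted p = 0.0709) without them. Without the 2 glands farthest from the median, r was 0.70 for Gfap and Slc1a3, 0.79 for Gfap and the score, and 0.70 for Slc1a3 and the score. Without the 3 glands Slc1a3 was instead related to Oxt (r = 0.65, permutation, adjusted p = 0.0183), Rax (r = 0.60, adjusted p = 0.0349) and the intermediate lobe score (r = 0.74, adjusted p = 0.0121).

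Oxt, Avp and Rax were each related to the intermediate lobe score, with an r of 0.82, 0.85 and 0.82 (rho 0.81, 0.77 and 0.75, permutation, adjusted p = 0.00054, 0.00288 and 0.00212). The correlations were 0.72, 0.73 and 0.70 without the 2 farthest glands, and 0.76, 0.68 and 0.65 without the 3 glands (adjusted p = 0.00378, 0.0355 and 0.0349). Gfap and Oxt had an r of -0.42 (rho -0.24, adjusted p = 0.207), which was 0.18 without the 3 glands. Vim was related to none of the other 5 genes or the 2 scores at this limit, with r from 0.11 to 0.48. All these values come from single glands, whose depth and lobe content enter every gene at the same time.

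**Figure D4:**
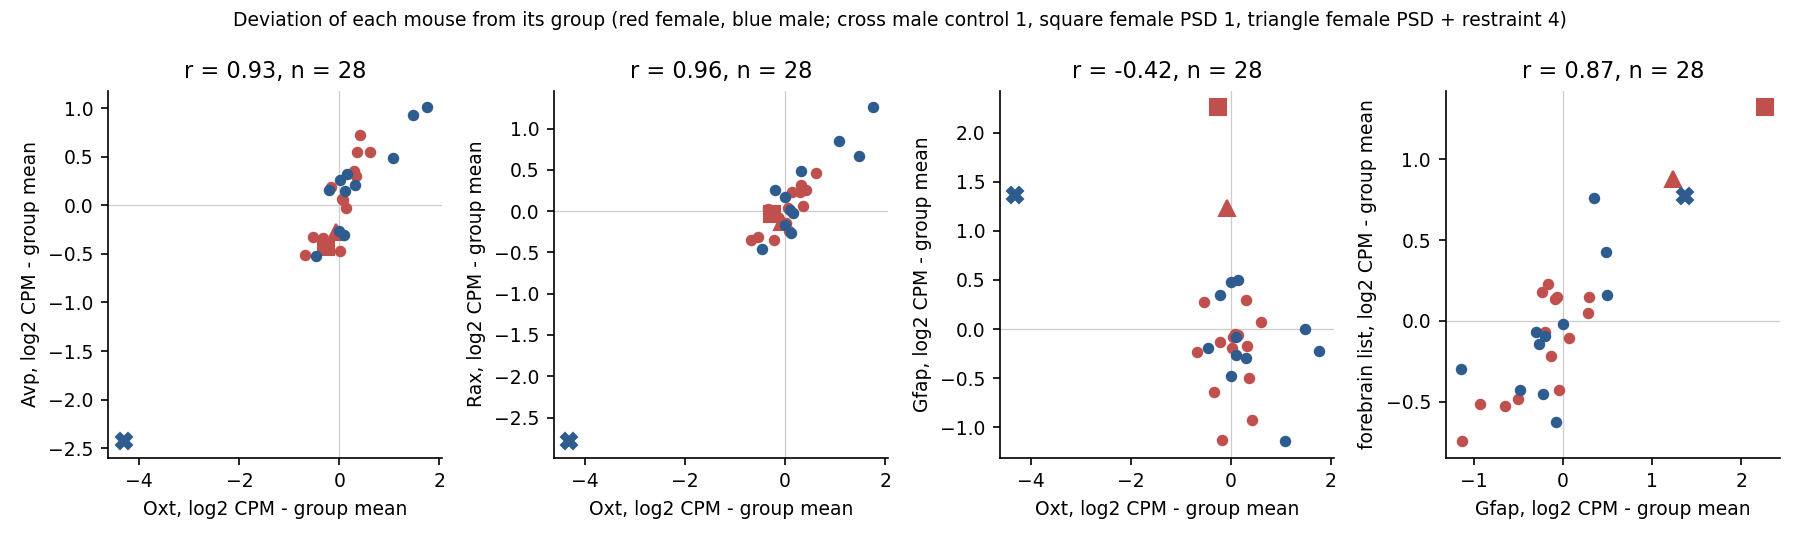
Deviation of each of 28 glands from the mean of its group, in log2 CPM, for pairs of genes (red female, blue male). Oxt follows Avp (r = 0.93) and Rax (r = 0.96) with male control 1 (cross) at the low end, Oxt and Gfap have an r of -0.42, and Gfap follows the forebrain neuron genes (r = 0.87) with the 3 glands that stood apart at the high end.

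The genes most like each member over all 28 glands, by Pearson r of log2 CPM among 18936 genes and with no test, fell along the same lines. For Oxt they were Col25a1 (0.94), Fgf10, a growth factor of the infundibulum (0.94), and Avp (0.93). For Avp they were Oxt (0.93), Tbx3, a transcription factor of the infundibulum (0.91), and Fgf10 (0.91). For Rax they were Scn7a (0.96), Ism2 (0.95) and Fgf10 (0.95). Among the nearest genes to Gfap were the glial genes Ncan (0.94) and Sox10 (0.93), and those to Slc1a3 were Sparcl1 (0.95), Ptprt (0.95) and Gja1, the gap junction protein connexin 43 (0.93). Vim had its nearest genes at lower values, Retsat (0.80), Paqr5 (0.79) and Col5a2, a fibrillar collagen (0.78). Without the 3 glands the first-named gene of Oxt was at 0.66, of Rax at 0.80, of Gfap at 0.75, of Slc1a3 at 0.86 and of Vim at 0.82.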

How the data were processed

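Libraries of whole pituitary RNA were made by the authors with a stranded mRNA kit and sequenced as paired reads of 76 bases. The authors aligned the reads to mm10 with MapSplice and obtained gene counts with HTSeq 0.9.1 and UCSC annotation, and the deposited table holds these raw counts per gene and mouse. The strand setting of the counting is not given in the sources used here. The deposited table of normalized counts was not used. Groups came from the labels. Nothing in the sources says that glands were pooled, and each is 1 mouse.

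The 6 members and all gene lists were chosen with earlier results of these data known. Counts were fitted in edgeR 4.0.16 (R 4.3.3, TMM, filterByExpr, quasi-likelihood F test). All mice were fitted with sex, PSD, restraint and the interaction of the treatments, each sex alone without the sex term, and the sex difference of a response with 1 mean per sex and treatment. P-values were adjusted over all genes tested, and a call needed an adjusted p of at most 0.05 and a log2 change of at least 0.32 in size. All 6 genes passed the filter in every fit, so the permutation test meant for a gene that failed it was not run. Relations used log2 CPM with a prior count of 2. In simulated data with 200 genes changed by 1 log2 unit, the fits for PSD averaged over restraint recovered 195 (all mice), 195 (females) and 194 (males) and called 8, 7 and 11 unchanged genes. No fit reported above averaged over restraint, and each treatment comparison with controls rests on fewer mice. The recovery therefore does not give the power of the reported comparisons. All 6 members are named in every comparison, and for each the 3 genes of highest Pearson r, 1 of which is not reported here. Beyond these, Pax7, Oacyl, Pcsk2, Col25a1, Nkx2-1, Scn7a, Slc17a7, Neurod6, Oxtr and Avpr1b and called genes of the lists could be named, and other list genes were named after their values had been seen. Alternatives were DESeq2 1.42.0, its size factors, other filters, only the groups compared, a replicate block, lobe and forebrain scores as terms, and leaving out each mouse. Leaving out the 3 glands together, and the ratios within a gland, were chosen after seeing the data.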

Additional observations from a re-analysis of the deposited data

Results flagged for a closer look

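Gfap in female PSD 1 was at 83.0 CPM, while the other 3 females of the PSD group were at 6.96 to 14.5 CPM. The gap to the nearest gland was 0.90 of the range of the group. It was the only one of 30 combinations of gene and group of 4 glands with a gap this large. For normal and independent values, chance marks about 1 in 20, and 1 of 30 is no more than that share. The CPM of genes that vary together in the same glands need not meet those conditions, so the share is only a rough guide. The high levels of oligodendrocyte and forebrain neuron genes in the same gland are given with Gfap above.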

How the results depend on the processing

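Oxt between the sexes kept its direction and its call in every fit that tested it, with leave-one-out values of 0.77 to 0.98. Leaving out genes with fewer than 10 counts in any mouse removed it (8 counts in male control 1), so that 0 members were called between the sexes. The forebrain neuron score as a term gave 2 (Oxt and Avp), and leaving out single mice 1 to 3. Vim became the 1 member called after PSD with DESeq2, after PSD + restraint with DESeq2, with the filter of 10 counts and with only the groups compared, and after PSD + restraint in males with DESeq2 and with no filter. Gfap became the 1 member called after PSD in females with DESeq2. Leaving out single mice gave 0 to 1 members called for PSD, for PSD + restraint and for PSD + restraint in males, and 0 to 3 for PSD in females. The cause was not tested.

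Several estimates that were not called over all mice changed sign, most of them near 0 and some, such as Gfap after PSD, not. For restraint these were Gfap and Slc1a3 at 0.043 and 0.034 with only the groups compared, at 0.071 and 0.020 with the replicate block, at 0.069 and 0.057 with the forebrain neuron score, and at 0.29 and 0.12 without the 3 glands. Oxt, Avp, Gfap and Slc1a3 were at -0.13, -0.18, 0.17 and 0.0074 with the intermediate lobe score, and Oxt and Avp at -0.10 and -0.10 without the 3 glands. For PSD the intermediate lobe score gave -0.32 for Oxt and -0.35 for Rax, and leaving out the 3 glands -0.050 for Rax. For PSD + restraint the intermediate lobe score gave -0.13 for Oxt, -0.065 for Avp and -0.00082 for Rax, and the forebrain neuron score -0.23 for Gfap. For sex the replicate block gave 0.0081 for Vim, the intermediate lobe score -0.079 for Rax, and the forebrain neuron score -0.20 for Gfap and -0.034 for Slc1a3. Leave-one-out ranges that crossed 0 were, for restraint, -0.10 to 0.22 for Oxt, -0.093 to 0.18 for Avp, -0.41 to 0.22 for Gfap and -0.12 to 0.10 for Slc1a3, for PSD -0.011 to 1.36 for Gfap and -0.017 to 0.28 for Rax, for PSD + restraint -0.20 to 0.53 for Gfap, for sex -0.051 to 0.015 for Vim, and for the female minus male response of Oxt -0.011 to 0.77 to restraint and -0.28 to 0.50 to PSD + restraint.

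Replicate numbers did not pair the mice: only 5 of 24 same-numbered pairs of females and 3 of 15 of males had deviations correlated above 0.1. With the replicate block the same member was called, Oxt between the sexes. The number of relations at the limit was 9 with a prior count of 0.5, 12 without removing group means and 10 without the 3 glands. Male control 1 had the fewest counts of Oxt, Avp and Rax, at 8, 10 and 15, with a total of 45849598 counts, above the median. Avp had 31 counts in male PSD + restraint 3, with a total of 16452347 counts. The 2 males after restraint limit that group.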
